A study of Mus musculus with 209 samples.

Results

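The libraries described here are single mouse oocytes at metaphase II (MII), the stage at which the egg is ovulated and waits for fertilisation, from the comparison of an Nlrp14 knockout with wild type. They are the 13 oocyte libraries, of 33 in the same count table and of 209 samples in the series, in which spike-in RNA made up less than 0.01% of all counts and the ribosomal RNA gene Rn45s less than 1% of the remaining counts. Of them 3 were wild type (WT) and 10 were labelled as maternal knockout of N14, read here as Nlrp14 (KO). The other 17 oocyte libraries with spike-in RNA (10 WT and 7 KO), and 3 with little spike-in RNA but more Rn45s (1 WT and 2 KO), did not enter the comparison.

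Per the labels, the oocytes of both genotypes came from C57BL/6 females of 6 to 8 weeks, superovulated by injection of PMSG and hCG, and were collected 14 to 15 hours after hCG. The 2-cell libraries used below as a second stage (8 WT and 9 KO) came from matings to C57BL/6 or PWK males and were collected at 42 to 43 hours. The labels describe the RNA as polyadenylated and each library as 1 cell. How the knockout was made, and which females gave which oocytes, is not given in the sources used here. Oocytes of 1 genotype may therefore share a mother, each genotype counts as 1 sample, and no test between genotypes was possible. Differences are given as the ratio of pooled counts per 1000000 counts (CPM), with a 95% interval that covers counting error only, and the spread between oocytes is shown by the single libraries.

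Nlrp14 belongs to the NLRP family, a group of proteins that in many tissues sense danger signals, and of which several members are made almost only in germ cells. It is a maternal-effect gene: its product is stored in the egg, and embryos of females that lack it stop early in cleavage. A full-grown oocyte does not transcribe its genome, so RNA at MII is what was laid down during growth and has survived maturation, when stored messengers are polyadenylated, deadenylated and in part destroyed. Related proteins, such as NLRP5, form the subcortical maternal complex, a protein layer below the egg membrane that early cleavage needs.

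The libraries were chosen by 2 measured values, the shares of spike-in RNA and of Rn45s. Spike-in RNA reached 0.00326% in the highest library inside the limit and 0.0285% in the lowest outside. For Rn45s the highest share inside was 0.508%, in WT library 2, the next was 0.432%, and the lowest outside was 1.78%. Non-spike counts ranged from 10600774 to 13052327 per WT library and from 4585916 to 10637866 per KO library. Between 9568 and 11536 genes had a count in a WT library, and between 8121 and 11276 in a KO library. KO library 5 had the fewest genes, and its 10 most abundant genes held 18.6% of its counts. All 10 oocyte markers, among them Gdf9, Bmp15, Zp3 and Mos, were at 10 CPM or more in both pools. Markers of cumulus and granulosa cells, the somatic cells around the egg, summed to between 63.9 and 78.1 CPM in WT libraries and to between 77.2 and 240 CPM in KO libraries, with a KO median of 96.9. Most of that sum was Cyp19a1, and Amh, Fshr and Foxl2 were at 0 in all libraries. KO library 9 stood apart, with Ptgs2 at 23.6 CPM, Inha at 24.8 CPM, Tnfaip6 at 18.1 CPM, Hsd3b1 at 21.5 CPM and Ptx3 at 5.49 CPM. Ptgs2 was at most 1.60 CPM in any other KO library. Has2, Inhba and Cd44 of the same list were at most 0.274, 0.686 and 0.933 CPM in any KO library. Amhr2 and Lhcgr were at 0 in all KO libraries. The blood marker Ptprc was also highest in KO library 9, at 5.49 CPM. The part of these cells in the results was not tested.

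Nlrp14 itself stood at 637, 652 and 651 CPM in the 3 WT libraries. In the 10 KO libraries its lowest level was 0.643 CPM, its median 26.8 CPM and its highest 42.4 CPM. Every KO library lay below every WT library, and the lowest WT library was 15.0 times the highest KO library. The pooled level was 24.8 CPM in KO against 647 CPM in WT, a log2 ratio of -4.71 (-4.77 to -4.64). Some Nlrp14 reads thus remained in all KO libraries, with the fewest in KO library 5. No exon or junction values were used here, so which stretch of the gene they cover was not tested. The targeted gene matched the label of every library in the comparison.

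Outside Nlrp14, most genes held a similar share of the pooled counts in both genotypes. CPM is a share of a library's own counts, so a difference in the amount of RNA per oocyte would not show. Of 24450 gene rows, 5957 reached 10 CPM in either pool and are called measured. Their median log2 ratio was -0.02, and 84.8% of them lay within 1.5-fold. Of the measured genes 118 were at least 2-fold higher in KO (1.98%) and 121 at least 2-fold lower (2.03%). These 239 genes, 4.01% of those measured, held 0.510% of the counts of the WT pool, so most had few reads. In 162 of the 239 the WT libraries themselves stood 2-fold or more apart. Whichever library was left out, 47 of the 118 higher and 52 of the 121 lower genes stayed 2-fold apart.

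A second description asks whether all 10 KO libraries lay on one side of all 3 WT libraries. That held for 32 genes higher in KO (0.537%) and 61 lower (1.02%), or 93 in all (1.56%). Both descriptions held for 11 higher genes (0.185%) and 29 lower genes (0.487%), 40 in all (0.671%), and the other 53 genes without overlap were less than 2-fold apart. These counts moved with the libraries used. With no limit on Rn45s, which adds 1 WT and 2 KO libraries, 4 higher and 19 lower genes had no overlap, and 1 and 9 met both descriptions. Without WT library 1 there were 53 higher and 138 lower genes without overlap, without WT library 2 there were 118 and 138, and without WT library 3 there were 90 and 214. Without WT library 2 the genes 2-fold higher numbered 336. Without KO library 5, the shallowest in genes, 49 higher and 68 lower genes had no overlap. Without KO library 9, which had the highest sum of cumulus and granulosa markers, there were 34 and 71.

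**Figure D1:**
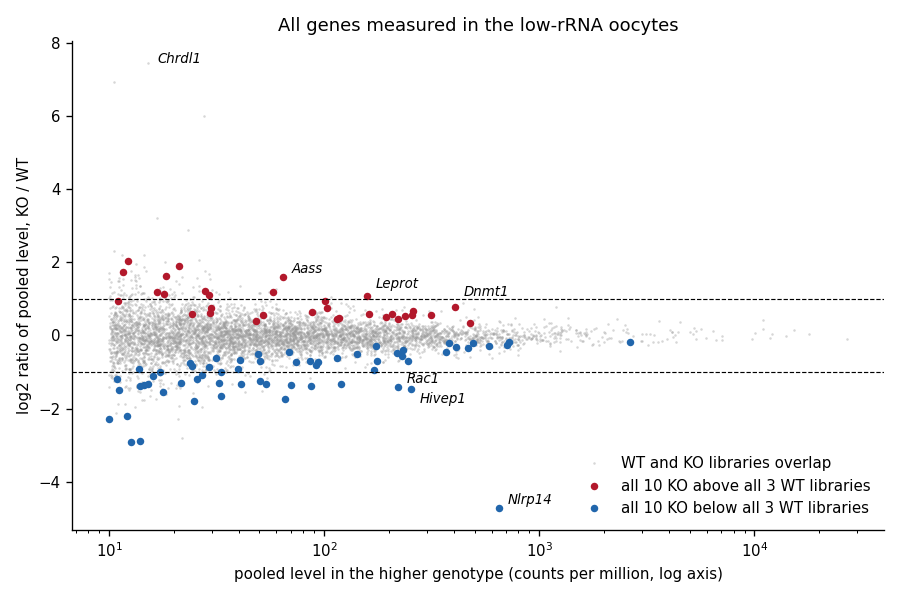
Each point is 1 of the 5957 genes measured, with its pooled level in the genotype where it is higher (CPM, log axis) and the log2 ratio of pooled levels, KO over WT; dashed lines mark 2-fold, and coloured points are genes whose 3 WT and 10 KO libraries do not overlap. Chrdl1 had 0 counts in WT and is drawn with 3 counts standing in for them. Nlrp14, at -4.71, lies apart from the other genes of high CPM, and the spread of ratios narrows to the right.

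Ratios of 2-fold were most frequent among genes with few reads. Between 10 and 20 CPM, 157 of 1365 genes were 2-fold apart. At 200 CPM or more it was 4 of 978, or 0.409%. Those 4 were Nlrp14, Hivep1, Rac1 and Bhlhe41. Genes without overlap did not thin out in the same way: 1.39% of the genes between 10 and 20 CPM and 2.45% of those at 200 CPM or more. Correlations between libraries, over log2(CPM + 1) of the measured genes, had a median Pearson r of 0.875 over the 3 pairs within WT, 0.878 over the 45 pairs within KO and 0.868 over the 30 pairs between genotypes. These are correlations across genes, which are not replicates, and the 3 ranges of r overlapped.

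Of the 4 genes 2-fold apart at 200 CPM or more, Hivep1 and Rac1 were, with Nlrp14, those whose genotypes did not overlap. Hivep1 encodes a large zinc-finger protein that binds enhancers, including sites of the NF-kappaB type. It measured 272, 234 and 255 CPM in WT, and 75.7, 87.0 and 122 CPM as the lowest, median and highest of the KO libraries. The log2 ratio was -1.46 (-1.50 to -1.41), and the lowest WT library held 1.92 times the level of the highest KO library. Rac1, a small GTPase that organises cortical actin, measured 210, 222 and 226 CPM in WT. Its KO libraries had a lowest level of 61.7, a median of 84.3 and a highest level of 108 CPM. The log2 ratio was -1.40 (-1.45 to -1.35), with a gap of 1.95-fold. The 3 WT libraries agreed closely for both genes, and no KO library came near them.

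Promoters are shown for 1 gene in each direction, those with the widest gap between genotypes among the 14 of 19 genes named by their ratio that have a promoter in RefSeq's GRCm38.p6 table, Nlrp14 included in the 19. The letters are the 300 bases around the annotated start, 5′ to 3′ on the gene's strand. The letters CANNTG, the E-box that the oocyte factor FIGLA binds as part of a dimer, and TAATTG, the element bound by the oocyte homeobox factor NOBOX, were searched on both strands, and capitals mark a match. Aass, higher in KO, lies on the minus strand at chr6:23132937-23133236. Hivep1, lower in KO, lies on the plus strand at chr13:42051771-42052070.
Aass: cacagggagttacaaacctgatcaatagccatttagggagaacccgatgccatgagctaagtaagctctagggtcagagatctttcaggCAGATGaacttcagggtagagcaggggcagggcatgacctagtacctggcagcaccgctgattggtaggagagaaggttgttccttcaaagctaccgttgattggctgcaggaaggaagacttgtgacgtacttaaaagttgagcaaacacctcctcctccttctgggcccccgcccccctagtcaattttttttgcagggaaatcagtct
Hivep1: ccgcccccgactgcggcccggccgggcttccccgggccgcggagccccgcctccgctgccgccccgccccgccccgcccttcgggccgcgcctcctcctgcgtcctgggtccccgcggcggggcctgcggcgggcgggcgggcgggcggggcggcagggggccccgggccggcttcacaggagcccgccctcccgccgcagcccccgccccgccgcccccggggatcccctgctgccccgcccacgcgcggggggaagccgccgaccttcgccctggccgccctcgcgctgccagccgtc
The Aass promoter held 1 E-box and the Hivep1 promoter 0, and neither held TAATTG. Over all 32851 promoters of that length in the table, 72.3% held an E-box and 8.00% the NOBOX element. GC content was 50.3% for Aass and 87.0% for Hivep1, beside a median of 52.7% over all promoters. Among genes without overlap, 57.7% of 26 promoters of higher genes and 52.2% of 46 promoters of lower genes held an E-box, against 62.1% of 4756 promoters of measured genes. Their median GC content was 62.2% and 61.3%, against 61.0% for measured genes. A match in these letters is a description and not a binding site.

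Flt1 and Tnfsf11 had the lowest ratios, after Nlrp14, of the genes named by their ratio. Flt1, a receptor for vascular endothelial growth factor, measured 23.3, 18.8 and 33.5 CPM in WT, and 0, 8.11 and 13.6 CPM as the lowest, median and highest KO libraries. The log2 ratio came to -1.79 (-1.95 to -1.64). Tnfsf11, the ligand RANKL, measured 62.7, 63.4 and 72.4 CPM in WT, and its KO libraries ranged from 0 to 51.0 CPM with a median of 14.7. In log2 terms the ratio was -1.73 (-1.82 to -1.63). For Tnfsf11 the 10 KO libraries covered a wider range of CPM than the 3 WT libraries, and for Flt1 they did not. A range over more libraries tends to be wider for that reason alone. For both genes at least 1 KO library had no count at all.

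Efna1, an ephrin ligand held at the cell surface, measured 59.8, 88.0 and 58.5 CPM in WT and 6.13, 27.9 and 43.2 CPM as the lowest, median and highest in KO, a log2 ratio of -1.36 (-1.45 to -1.28). Lamp1, a glycoprotein of the lysosome membrane, measured 104, 96.5 and 57.4 CPM in WT and 13.1, 34.5 and 47.4 CPM in KO, a log2 ratio of -1.38 (-1.46 to -1.31). Cd7, a surface protein best known from lymphocytes, measured 27.4, 31.2 and 39.6 CPM in WT and 1.13, 13 and 20.5 CPM in KO, a log2 ratio of -1.31 (-1.43 to -1.18). All 3 lay lower in every KO library, which the rule that named them requires, and the smallest gap, 1.21-fold, was that of Lamp1.

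Got1, Fpgt, Emb, Slc37a3 and Fam69b met the same rule. Got1, the cytosolic aspartate aminotransferase of the malate-aspartate shuttle, measured 44.0, 56.5 and 60.1 CPM in WT and 4.82, 21.6 and 41.4 CPM as lowest, median and highest in KO, a log2 ratio of -1.34 (-1.43 to -1.24). Fpgt, an enzyme of fucose salvage, measured 119, 112 and 131 CPM in WT and 21.0, 48.1 and 75.2 CPM in KO, a log2 ratio of -1.32 (-1.39 to -1.26). Emb, which encodes embigin, a membrane partner of monocarboxylate transporters, measured 59.6, 55.9 and 34.7 CPM in WT and 7.13, 19.6 and 33.7 CPM in KO. The Emb libraries barely separated, with a gap of 1.03-fold. Slc37a3, of a sugar-phosphate transporter family, and Fam69b, a kinase-like protein, had log2 ratios of -1.20 (-1.34 to -1.07) and -1.31 (-1.42 to -1.20), with gaps of 1.08-fold and 1.01-fold.

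In the other direction 6 genes met the same rule. Aass, the first enzyme of lysine breakdown, measured 8.00, 29.9 and 24.1 CPM in WT, and 41.4, 67.0 and 84.2 CPM as the lowest, median and highest KO libraries. That gave a log2 ratio of 1.60 (1.49 to 1.72), and the gap of 1.38-fold was the widest of the 6. Slc16a1, the monocarboxylate transporter MCT1 that carries lactate and pyruvate, measured 5.79, 10.3 and 0 CPM in WT and 11.9, 17.7 and 31.7 CPM in KO. Its log2 ratio was 1.89 (1.68 to 2.11), and 2.85 without WT library 2. That all 10 KO libraries lay above all WT libraries was part of the rule that named the gene. The size of the ratio leaned on how few reads the WT libraries had.

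Leprot, a membrane-trafficking protein whose gene shares its promoter with the leptin receptor gene, measured 54.2, 102 and 62.0 CPM in WT and 120, 165 and 185 CPM as the lowest, median and highest in KO, a log2 ratio of 1.09 (1.03 to 1.15). Mpzl1, a surface glycoprotein, measured 29.7, 26.4 and 19.8 CPM in WT and 35.7, 52.2 and 91.0 CPM in KO, a log2 ratio of 1.18 (1.08 to 1.29). Ttll13, an enzyme that adds glutamate chains to tubulin, and Helz, an RNA helicase, had log2 ratios of 1.11 (0.97 to 1.26) and 1.23 (1.08 to 1.38). Helz was below 2-fold without WT library 3, at 0.79, and Leprot without WT library 1, at 0.92, or WT library 3, at 0.98.

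**Figure D2:**
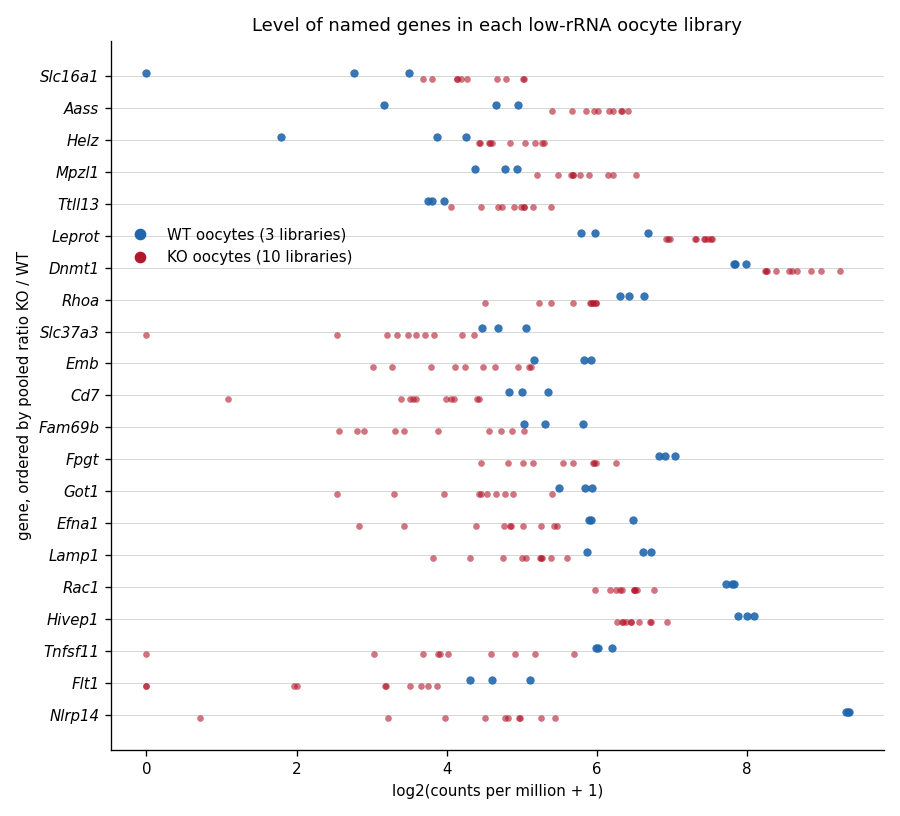
Each point is the level of a gene in 1 oocyte library, as log2(CPM + 1), for the genes named by the rule and for Dnmt1 and Rhoa; WT libraries are blue (3) and KO libraries red (10). In every row the blue and red points do not overlap, and the empty space is widest for Nlrp14, from 42.4 to 637 CPM.

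The counts of list members stand beside 1.98% of all measured genes 2-fold higher, 2.03% 2-fold lower and 1.56% without overlap. Of 29 list medians, 15 changed sign when some 1 library was left out. DNA methylation genes were of interest because the series concerns methylation and its oxidation in embryos and germ cells. Of 22 genes listed, 14 were measured, none was 2-fold apart, and 1 had no overlap. That gene was Dnmt1, the enzyme that copies methylation onto new DNA strands. It measured 253, 228 and 225 CPM in WT and 301, 381 and 602 CPM as the lowest, median and highest KO libraries. The log2 ratio was 0.78 (0.75 to 0.82), and every KO oocyte exceeded every WT oocyte. Leaving out any single library moved that ratio only between 0.69 and 0.84, and the libraries stayed apart with TMM and DESeq2 scaling factors.

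The partners and counterparts of Dnmt1 did not separate. Uhrf1, which guides DNMT1 to half-methylated DNA, measured 161, 201 and 57.0 CPM in WT and 76.2, 143 and 286 CPM as the lowest, median and highest in KO, a log2 ratio of 0.12 (0.07 to 0.17). Usp7, a deubiquitinase that binds both proteins, had a log2 ratio of -0.15 (-0.19 to -0.11). The de novo enzymes Dnmt3a and Dnmt3b, and their cofactor Dnmt3l, had log2 ratios of -0.09 (-0.12 to -0.05), 0.23 (0.13 to 0.32) and 0.58 (0.44 to 0.72). Tet3, which oxidises methylcytosine in the zygote, measured 482, 756 and 325 CPM in WT and 346, 471 and 791 CPM in KO, with a log2 ratio of -0.05 (-0.07 to -0.02). The WT libraries alone covered most of the KO range for Tet3.

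Dppa3, which shields maternal DNA from oxidation, was the most even member, with 4214, 4211 and 4228 CPM in WT, a KO median of 4070 CPM and a log2 ratio of 0.01 (0.00 to 0.02). Zfp57, which protects imprints, had a log2 ratio of -0.01 (-0.03 to 0.01), and its partner Trim28 one of 0.26 (0.17 to 0.36). Zfp445, a second imprint protector, had the lowest ratio of the list, -0.54 (-0.67 to -0.42), at 25.3 CPM in the WT pool. Setdb1, a histone methyltransferase recruited by Trim28, had a ratio of 0.23 (0.16 to 0.30). The repair genes Mbd4 and Apex1 had ratios of 0.45 (0.36 to 0.54) and 0.09 (-0.08 to 0.26). Apex1 depended on 1 library: without WT library 3 it was at 1.06, past 2-fold. The list's median log2 ratio was 0.10, beside -0.02 over all genes.

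Of 11 NLRP genes measured, Nlrp14 was the 1 that was 2-fold apart, and the others had log2 ratios from -0.22 to 0.46. Nlrp5, the core member of the subcortical maternal complex, measured 846, 780 and 643 CPM in WT and 770, 1000.4 and 1393 CPM as the lowest, median and highest in KO. Its log2 ratio was 0.46 (0.44 to 0.48), and 9 of 10 KO libraries exceeded all WT libraries. Nlrp9c had a ratio of 0.27 (0.25 to 0.29), with 8 of 10 KO libraries above all WT libraries. Nlrp2, Nlrp4c and Nlrp4e had ratios of 0.36 (0.30 to 0.41), 0.43 (0.28 to 0.57) and 0.41 (0.35 to 0.47), but their libraries overlapped widely, and Nlrp4e was at 1.14, past 2-fold, without WT library 2. Nlrp4a, Nlrp4b, Nlrp4f and Nlrp9a lay between 0.03 and 0.06, and Nlrp9b was at -0.22 (-0.26 to -0.19). Several of these genes are near-identical copies, and how shared reads were counted is not given in the sources used here, so the values of the Nlrp4 and Nlrp9 copies are uncertain.

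Of the 8 measured genes of the subcortical maternal complex and cytoplasmic lattice, none separated the genotypes and 1 was 2-fold apart. That was Khdc3, the small KH-domain partner of the complex, at 14.3, 19.2 and 0.849 CPM in WT and 0, 27.9 and 32.2 CPM as the lowest, median and highest in KO. Its log2 ratio was 1.05 (0.89 to 1.20), and it was at 0.55, below 2-fold, without WT library 3 and at 1.69 without WT library 2. Ooep and Padi6, the second an arginine deiminase of the lattices, both had a ratio of 0.17, with intervals of 0.13 to 0.20 and 0.15 to 0.19. Each had 7 of 10 KO libraries above all WT libraries. Tle6 had a ratio of 0.26 (0.17 to 0.34) and Zbed3 one of -0.02 (-0.02 to -0.01). The list's median was 0.21.

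**Figure D3:**
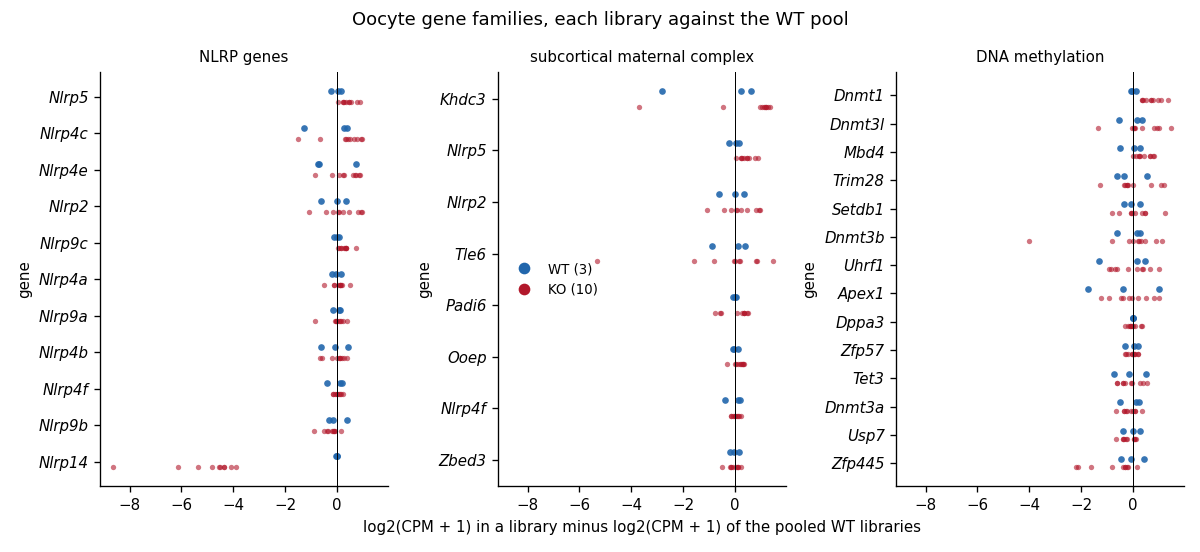
Each point is 1 library's log2(CPM + 1) minus that of the pooled WT libraries, for the measured genes of 3 lists; WT libraries are blue (3) and KO libraries red (10), and the line at 0 is the WT pool. Nlrp14 and Dnmt1 are the only rows in which the colours do not overlap.

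The genes with the most reads were near their WT levels. Among the 10 highest by CPM in the WT pool, the largest log2 ratio was 0.43 (0.42 to 0.44), for D6Ertd527e, followed by H3f3b, a histone H3.3 gene, at 0.18 (0.18 to 0.19). H1foo, the oocyte linker histone, had 14440, 14620 and 12042 CPM in WT and a KO median of 14732 CPM, a ratio of 0.15 (0.14 to 0.15). Spin1, which binds meiotic spindles, had a ratio of -0.10 (-0.10 to -0.10). Paip1, Ccdc6, Rbbp7, Zbed3, Tcl1 and Oog3 lay between -0.09 and 0.05. The intervals of these genes are narrow because they cover counting error alone: Paip1 ranged from 9533 to 29806 CPM among the WT oocytes.

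Papola and Cnot7, enzymes of the poly(A) tail, which decides the fate of stored messengers, were among the genes without overlap. Papola, the canonical poly(A) polymerase, measured 389, 358 and 400 CPM in WT and 425, 461 and 670 CPM as the lowest, median and highest in KO, a log2 ratio of 0.33 (0.30 to 0.36). Cnot7, a deadenylase of the CCR4-NOT complex, measured 2623, 2669 and 2631 CPM in WT and 2123, 2272 and 2614 CPM in KO, a ratio of -0.18 (-0.19 to -0.17). Both differences were small, and with TMM or DESeq2 scaling factors in place of total counts the libraries of both genes overlapped. Of 34 measured genes of maternal RNA storage and decay, Msi2, an RNA-binding protein, was 2-fold lower, at -1.42 (-1.63 to -1.21), with overlapping libraries. Of 14 genes of cleavage and polyadenylation, Cpsf3, the endonuclease, was 2-fold higher at 1.54 (1.37 to 1.70), and Cstf2 2-fold lower at -1.05 (-1.20 to -0.90). Both overlapped. Cpsf3 was at 2.44 without WT library 2, and Cstf2 fell short of 2-fold when any of 7 libraries was left out, with -0.73 without WT library 1. The medians of the storage and polyadenylation lists were -0.06 and 0.15.

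Other small GTPases were named after their values were seen. Rhoa, which drives contraction of the cortex, measured 84.7, 78.0 and 98.1 CPM in WT and 21.8, 59.1 and 62.5 CPM as the lowest, median and highest in KO, a log2 ratio of -0.70 (-0.77 to -0.64) without overlap. Cdc42, needed for polar body extrusion, had a ratio of 0.03 (-0.00 to 0.07). Also without overlap were Rala, at -0.69 (-0.74 to -0.64), and Rab11a, of recycling endosomes, at -0.30 (-0.33 to -0.28). With DESeq2 scaling factors the Rab11a libraries overlapped, while those of Rac1, Rhoa and Rala did not.

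Other genes without overlap, were likewise named after their values were seen. Rest, a repressor of neuronal genes, measured 379, 325 and 409 CPM in WT and 165, 259 and 321 CPM as the lowest, median and highest in KO, a log2 ratio of -0.45 (-0.48 to -0.42). Ctbp2, a corepressor, had a ratio of -0.69 (-0.73 to -0.65), and Cux1, a homeobox factor, one of -0.70 (-0.78 to -0.61). Pou5f1, the pluripotency factor OCT4, was at 11.9, 8.43 and 13.9 CPM in WT and 0.130, 3.87 and 8.37 CPM in KO. Its ratio was -1.49 (-1.71 to -1.27), and its groups nearly met. Outside these libraries Pou5f1 lay in the other direction, at 0.63 in the spike-in oocytes and 1.02 at the 2-cell stage. With TMM or DESeq2 scaling factors the libraries of all 4 genes overlapped. On the higher side were Elk4, a partner of serum response factor, at 0.76 (0.69 to 0.83), Tardbp, which encodes the RNA-binding protein TDP-43, at 0.50 (0.45 to 0.55), and Hspa8, the constitutive HSC70 chaperone, at 0.63 (0.56 to 0.70).

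Calcium genes were listed because calcium signals start development at fertilisation. Of 19 measured, none was 2-fold apart and 1 had no overlap. Stim2, a sensor of the calcium level in the endoplasmic reticulum, measured 147, 140 and 203 CPM in WT and 210, 262 and 317 CPM as the lowest, median and highest in KO, a log2 ratio of 0.68 (0.64 to 0.73). Its libraries overlapped with TMM or DESeq2 scaling factors. Ryr2, a calcium release channel, was the lowest of the list, at -0.57 (-0.73 to -0.42). The list's median was -0.12. Among 10 genes of the egg surface and egg activation, Cd9, the tetraspanin that sperm fusion needs, was 2-fold higher at 1.12 (0.94 to 1.30), at 7.91, 6.74 and 12.2 CPM in WT and with 8 of 10 KO libraries above all WT libraries. Without WT library 2 it was at 0.93, below 2-fold.

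Of the 35 genes that were 2-fold apart and named through a list alone, 14 stayed so whichever library was left out. Of the zinc finger Zfp genes 8 of 118 were 2-fold lower and 0 higher, beside 2.03% and 1.98% of all measured genes. Their median was -0.12, beside -0.02 over all genes, and 0.00 without WT library 2. Zfp992, at 11.4, 6.05 and 21.9 CPM in WT and 0.353, 1.22 and 5.38 CPM as the lowest, median and highest in KO, had the lowest ratio, -2.92 (-3.21 to -2.63), without overlap. Zfp938, Zfp563 and Zfp821 had ratios of -1.44, -1.41 and -1.25 and overlapping libraries, and Zfp938 was at -0.60 without WT library 1. Antiviral and interferon genes had 8 measured members, of which Ddx60 and Zc3hav1 were 2-fold lower, at -2.79 (-3.00 to -2.58) and -1.32 (-1.43 to -1.20). Both overlapped, and Zc3hav1 was at -0.61 without WT library 3, and Ddx60 at -3.39 without KO library 4.

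In the respiratory chain 3 of 37 measured genes were 2-fold higher, beside 1.98% of all measured genes, and 0 lower. They were the complex I subunits Ndufa8, Ndufa13 and Ndufb11, at 1.33 (1.07 to 1.60), 1.24 (1.00 to 1.49) and 1.14 (0.95 to 1.33). Only Ndufb11 had no overlap, at 10.0, 7.51 and 7.17 CPM in WT and 10.6, 17.5 and 25.2 CPM as the lowest, median and highest in KO. Ndufa13 was at 1.90 without WT library 2 and, below 2-fold, at 0.95 without WT library 3, and Ndufa8 was at 0.89 without WT library 1. The list's median was 0.11, or -0.02 without WT library 3, and that of the mitochondrial ribosomal proteins was 0.05, with 0 of 37 genes 2-fold apart. Mitochondrially encoded genes had no rows in the table used here.

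Antioxidant genes had 16 measured members with a median of -0.04. Gclm, the modifier subunit of the enzyme that makes glutathione's first intermediate, measured 16, 17.6 and 18.1 CPM in WT and 4.35, 9.24 and 12.2 CPM as the lowest, median and highest in KO. The ratio was -1.01 (-1.17 to -0.84) on the log2 scale, without overlap, and it fell short of 2-fold when any of 6 libraries was left out, with -0.92 without KO library 2. Of 29 replication licensing genes, the helicase subunits Mcm5 and Mcm3 were 2-fold higher, at 1.60 (1.35 to 1.85) and 1.16 (0.95 to 1.38), with overlap. Mcm5 was at 2.34 without WT library 1, and Mcm3 at 0.97 without KO library 2. Of 12 tubulin genes, 2 were 2-fold higher, where 1.98% of all measured genes were: Tuba3b and Tuba1c, at 2.07 (1.86 to 2.28) and 1.49 (1.30 to 1.69), also with overlap. Without WT library 2 they were at 1.39 and 2.76, and without WT library 1 Tuba3b was at 2.65. Tubulin isotypes share much of their sequence, and their counts are uncertain for that reason.

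Cldn15, a tight-junction claudin, was the 1 gene of 9 in its list that was 2-fold apart, at 2.89 (2.61 to 3.19). Its libraries measured 3.68, 5.21 and 0 CPM in WT and 0, 16.7 and 71.6 CPM as the lowest, median and highest in KO, and it was at 3.64 without WT library 2. In the list of oocyte transcription factors and storage proteins (38 measured, median 0.00), Ddx4, the germ-cell helicase VASA, was higher at 1.17 (1.06 to 1.28), with 9 of 10 KO libraries above all WT libraries, and at 0.88 without WT library 3. Sohlh2, a factor of early oocytes, was lower at -1.54 (-1.65 to -1.43), and at -0.83 without WT library 3. Meiotic cell cycle genes had 32 measured members with a median of 0.03, of which Ensa, an inhibitor of the phosphatase PP2A, was 2-fold higher at 1.12 (0.90 to 1.35). Its libraries overlapped too, and it was at 0.93 without WT library 3.

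In 5 lists of housekeeping genes, 9 of 189 measured genes were 2-fold apart in either direction, beside 4.01% of all measured genes. Proteasome subunits had 1 of 34, Psmb1 at 1.13 (0.95 to 1.31), which was at 0.73 without WT library 1 and at 2.07 without WT library 2. Splicing factors had 2 of 48, Sf3a2 at 1.04 (0.84 to 1.23) and Hnrnpm at 1.01 (0.81 to 1.21), and both fell short of 2-fold without WT library 3, at 0.77 and 0.48. Translation initiation factors had 2 of 37, Eif3g at 1.46 (1.19 to 1.74), or 2.28 without WT library 2 and 0.93 without WT library 3, and Eif2d at -1.87 (-2.11 to -1.63). F-box genes had 2 of 45, Fbxw5 at 1.37 (1.14 to 1.61), or 3.26 without WT library 2 and 0.84 without WT library 3, and Fbxo10 at -1.10 (-1.28 to -0.91), or -0.86 without WT library 3. Heat shock genes had 2 of 25, Hsf2 at 1.19 (1.05 to 1.32) and Cct3 at 1.05 (0.90 to 1.21), and without WT library 2 they were at 0.81 and 0.92. The libraries of each of these 9 genes overlapped, and Eif2d was the 1 gene of the 9 that stayed 2-fold apart whichever library was left out.

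Apoptosis and p53 target genes had 1 of 10 genes 2-fold apart, Aen, at 1.01 (0.88 to 1.14), or 1.70 without WT library 1 and 0.50, below 2-fold, without WT library 3. Kinesins had 1 of 19, Kif21a at -1.39 (-1.60 to -1.18). Cytosolic ribosomal proteins had 0 of 23 and a median of 0.10, with Rpl13a at -0.65 (-0.78 to -0.52). Stress-response genes had 0 of 14, with Pdia4 at 0.70 (0.57 to 0.83) and Ppp1r15b at 0.58 (0.41 to 0.74). Without WT library 2 both were past 2-fold, at 1.03 and 1.91. Imprinted genes had 0 of 6, with Igf2r at 0.51 (0.41 to 0.61) and Phlda2 at 0.27 (0.14 to 0.39), and Igf2r was at 1.03 without WT library 3. Mitochondrial ribosomal proteins reached -0.77 (-0.89 to -0.64) for Mrps5 and 0.76 (0.63 to 0.89) for Mrpl44, the second without overlap.

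Only 2 of 40 listed transcripts of zygotic genome activation were measured, Gata3 at -0.67 (-0.76 to -0.59) and Sp110 at 0.19 (0.16 to 0.23). Of the cumulus and granulosa list 2 of 32 were measured, Cyp19a1 at 0.51 (0.44 to 0.58) and Kitl at 0.80 (0.59 to 1.01). None of the 22 sperm and blood markers was measured.

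**Figure D4:**
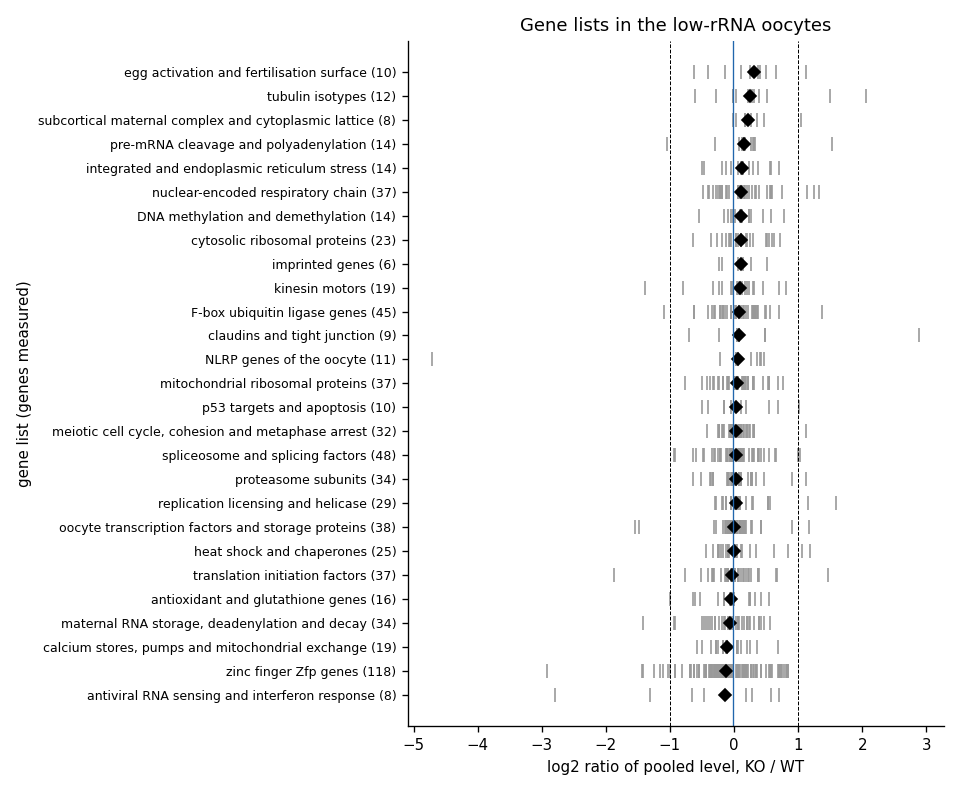
Each row is a gene list with its number of measured genes; grey ticks are genes, the black diamond is the list's median log2 ratio (KO over WT), the blue line is the median of all measured genes and dashed lines mark 2-fold. Lists with fewer than 6 measured genes are not drawn. The medians drawn lie between -0.14 and 0.32, and Nlrp14 is the tick at -4.71.

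The region around Nlrp14 was examined because a targeted locus can carry linked differences. Gene order was taken from RefSeq's GRCm38.p6 table, and the files' own build is mm9, so no coordinates are given. Of the 20 nearest measured genes, 0 had no overlap and 1 was 2-fold apart: Trim68, a ubiquitin ligase, at -1.64 (-1.83 to -1.45), with overlapping libraries. Their median log2 ratio was 0.05. Of the 92 genes without overlap that could be placed, 8, or 8.70%, were on the chromosome of Nlrp14, which held 5.90% of the measured genes. That count of 8 includes Nlrp14 itself.

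The same genes were then read in libraries that the selection did not use. In the 17 spike-in oocytes, Nlrp14 had a log2 ratio of -3.07, also without overlap. Of the 32 higher genes without overlap, 30 were measured there and 26 lay above 0, where 55.6% of all genes measured in both sets did. Of the lower genes without Nlrp14, 38 of 53 lay below 0, where 44.4% of all genes did. Genes without overlap on the same side in both sets numbered 4 higher and 5 lower, Nlrp14 left out, and none was on opposite sides. In the spike-in oocytes themselves 7.63% of genes were without overlap and higher, and 3.11% without overlap and lower. Of the same genes, 8 higher and 4 lower were also 2-fold apart there on the same side, beside 8.93% and 2.91% of all genes measured in both. The 4 higher genes without overlap in both sets were Leprot, Papola, Leo1 and Sirt7. The 5 lower genes without overlap in both sets were Hivep1, Cux1, Bfar, Prr23a3 and AI987944. With DESeq2 scaling factors in the low-rRNA oocytes, Papola, Leo1, Cux1, Bfar and AI987944 overlapped between genotypes.

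For single genes the agreement between the sets was uneven. Hivep1 had a ratio of -1.28 in the spike-in oocytes, Tnfsf11 -1.56, Got1 -1.12 and Leprot 1.85, each in the direction seen in the low-rRNA oocytes. Leprot had few reads in the spike-in oocytes, at 3.13 CPM in WT and 11.3 CPM in KO. In the low-rRNA oocytes it was at 74.5 and 159 CPM. Rac1, in contrast, had a ratio of 0.10 in the spike-in oocytes, Lamp1 0.49, Slc37a3 0.81, Rhoa 0.43 and Pou5f1 0.63. Fam69b was at 0.95, but with 2.51 CPM in WT and 4.87 CPM in KO it was below the limit of 10 CPM there. Dnmt1 had a ratio of 0.30 and Stim2 one of 2.04, both with overlap. The difference between the 2 sets of libraries was not tested for any gene, since each genotype is 1 sample in each set.

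At the 2-cell stage, after the first cleavage and the onset of embryonic transcription, Nlrp14 had a log2 ratio of -2.03. Of the lower genes without overlap in the oocytes, 37 of 52 lay below 0, beside 53.2% of all genes measured in both. The 2-fold lower genes without overlap did so in 18 of 20 cases. Of the higher genes, 18 of 32 lay above 0, beside 46.8% of all genes. Efna1 was at -1.64, Got1 at -1.17, Leprot at 1.27, Stim2 at 1.40 and Slc16a1 at -1.34, while Rac1 and Dnmt1 were at -0.09 and 0.17. Tnfsf11 was at -1.31, but with 6.23 CPM in WT and 2.52 CPM in KO it was below the limit of 10 CPM there. The 2-cell libraries add RNA of the embryo's own genome to what the egg stored, and these 2 sources were not separated here.

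**Figure D5:**
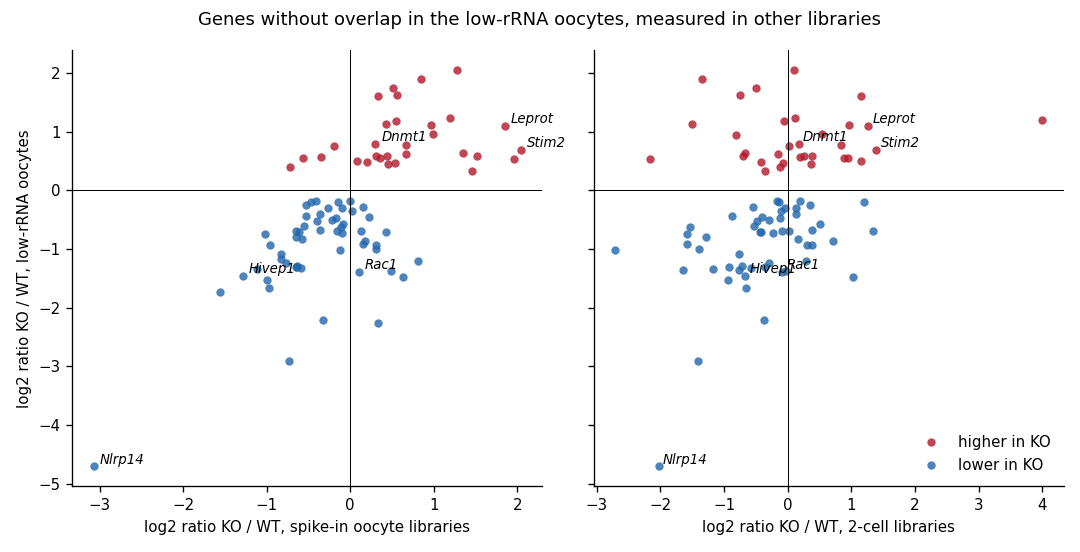
Each point is a gene without overlap in the low-rRNA oocytes that was also measured in the spike-in oocytes (left) or 2-cell libraries (right); the vertical axes give the log2 ratio KO over WT in the low-rRNA oocytes and the horizontal axes that in the other libraries. In the left panel 26 of 30 red points lie right of 0, and Rac1 sits near 0 on the horizontal axis, at 0.10.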

How the data were processed

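RNA of single MII oocytes was compared between WT and Nlrp14 KO. The authors deposited raw counts per gene symbol, without normalization, in 1 table of 50 libraries; the columns were matched to samples by their titles. Per the submitters' processing notes, which give no role or order, the tools included SAMtools 0.1.18, featureCounts 2.0.1, Trim Galore 0.6.6, STAR 2.6.0a, cutadapt 1.15 and HTSeq 0.10.0, with mm9 as the build. Use of strand, molecular identifiers and the treatment of reads shared by several genes are not given in the sources used here, so intervals cover counting error only, and antisense or duplicated genes are uncertain. The 92 spike-in rows were left out of totals.

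From the counts, CPM was computed per library and over the pooled libraries of a genotype. The log2 ratio of the pools has an exact conditional (Clopper-Pearson) 95% interval. A gene was measured at 10 CPM in either pool and called at 2-fold; where a genotype had no counts, 3 counts per pool stood in for it. CPM is not corrected for length, so an order of genes by CPM is one of reads and not of molecules. Total counts per library ranged from 4585916 to 13052327, so low levels carry the widest intervals. No test was run. The scripts were tested on simulated data. Python 3.11.15, pandas 2.3.3, scipy 1.17.1, R 4.3.3, edgeR 4.0.16 (TMM factors only) and DESeq2 1.42.0 (size factors only) were used.

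The libraries and gene lists were chosen with earlier results of these data known. Genes were named by rule: Nlrp14, up to 12 on each side with the largest ratios among those at 20 CPM or more in the higher pool, 2-fold apart and without overlap, with predicted gene models passed over; all measured members of 3 lists; up to 4 members of each other list that were 2-fold apart, otherwise the 2 with the largest ratios; and the 10 most abundant in WT. A gene chosen by this rule is not reported here. Alternatives changed scaling, the pooling, the CPM and fold limits and the Rn45s limit, and left out each library in turn. No 2 libraries of a genotype agreed within sampling noise. Allele tables, epiblast tables and the DNA assays were not analysed here.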

Additional observations from a re-analysis of the deposited data

Results flagged for a closer look

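Among 104 named genes, 13 had 1 KO library that stood apart from the other 9, its gap to the nearest library, as a share of the range of the 10, exceeding Dixon's critical value for 10 samples at 95%. Chance alone marks about 1 in 20 groups if values are normally distributed, which was not tested for the CPM used here. Lowest libraries that stood apart: Nlrp9a was at 391 CPM in KO library 5, against 669 CPM in the next. The rest were highest libraries. KO library 5 was also apart for 3 others: Spin1 was at 31857 CPM, Ccdc6 at 27781 CPM and Rpl13a at 30.1 CPM there. Nlrp9c was at 1658 CPM in KO library 8, against 1274 CPM in the next. In KO library 1, Setdb1 was at 156 CPM and Cldn15 at 71.6 CPM. In KO library 4, Ddx60 was at 11.9 CPM and Fbxw5 at 38.3 CPM. KO library 7 held Tuba1c at 40.9 CPM and Zfp992 at 5.38 CPM. Zfp938 was at 23.4 CPM in KO library 3 and Gata3 at 79.3 CPM in KO library 6. Of these, Zfp992 was the 1 gene whose genotypes did not overlap, and its outlying library was the one nearest to WT.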

How the results depend on the processing

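Nlrp14 kept its direction under every alternative. Its log2 ratio was -4.60 with median CPM over libraries, -5.34 with no limit on Rn45s, and -4.52 in libraries with 9600 or more genes detected (2 WT and 7 KO, an alternative chosen after seeing the data), and between -4.82 and -4.59 when 1 library was left out. The counts of genes moved with the limits. In the order 2-fold higher, 2-fold lower, without overlap higher, without overlap lower, both higher, both lower, leaving out 1 library gave ranges of 108 to 336, 113 to 201, 34 to 118, 68 to 214, 11 to 58 and 29 to 78. A limit of 1 CPM gave 1110 and 941 2-fold genes, 18 with both higher and 45 lower; no CPM limit gave 2465 and 3133, and 18 and 48; a limit of 50 CPM gave 7, 14, 19, 33, 3 and 9. Median CPM gave 185 and 230 2-fold genes. With no limit on Rn45s (4 WT and 12 KO) 67 genes were 2-fold higher, 4 and 19 had no overlap, and 1 and 9 had both. Rn45s under 0.5%, which drops WT library 2, gave 336, 189, 118, 138, 58 and 61. Libraries with 9600 or more genes gave 205 and 310 without overlap, 58 and 76 with both. A limit of 1.5-fold gave 432 and 476 genes, 20 and 45 with both; 3-fold gave 27 and 22, and 5 and 8. Fewer libraries make absence of overlap easier to reach, and fewer reads widen ratios; other causes were not tested. TMM and DESeq2 factors shifted the median of all genes by 0.00 and 0.02, and left 50 and 42 lower genes without overlap, of which 41 and 37 were among the 61. Over both directions 64 and 61 of the 93 genes stayed without overlap, and all 19 genes named by their ratio, Nlrp14 included, did under both. Of the genes with both, 9 of 11 higher and 22 of 29 lower kept both whichever library was left out. Groups without overlap stay so when a library is left out, so only the 2-fold and CPM limits could end such a call. No named gene that was 2-fold apart reversed. No paired analysis was possible because the results come from no test and the replicate numbers only name single oocytes.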

Other observations

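A few genes with large ratios rested on few reads or libraries, and are given as values. Chrdl1, a secreted antagonist of BMP signals, had 0 counts in the WT pool and 1193 in the KO pool. With 3 counts standing in for the WT pool its log2 ratio was 7.45, and the lower limit was 7.15. It had 7 of 10 KO libraries above all WT libraries and was at 0 in at least 1. Ado, a cysteamine dioxygenase, had 0 and 827 counts, and in the same way a log2 ratio of 6.92 with a lower limit of 6.62. Slc15a2, a peptide transporter, was at 1.80 CPM in WT and 16.7 CPM in KO, with 8 of 10 KO libraries above all WT libraries. Spp1, osteopontin, was at 0.434 and 27.7 CPM, but its KO median was 0.989 CPM and its highest library, KO library 9, held 288 CPM. That is the library with the highest sum of cumulus and granulosa markers.

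Bhlhe41, a transcriptional repressor of the clock, was abundant and 2-fold apart but overlapping: WT ranged from 200.2 to 556 CPM and KO from 23.6 to 222 CPM, with 9 of 10 KO libraries below all WT libraries. Its log2 ratio was -1.64 (-1.68 to -1.60), and -2.17 in the spike-in oocytes.

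The WT oocyte with little spike-in RNA that the Rn45s limit left out, at 2.38% Rn45s, held Nlrp14 at 3307 CPM, against 637 to 652 CPM in the WT libraries inside the limit. The 2 KO oocytes left out with it held 65.8 and 73.2 CPM, above the 42.4 CPM that was the highest inside.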
